A study of Mus musculus with 9 samples.

Results

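The growth hormone and IGF axis was followed through 10 transcripts in mouse liver after acetaminophen (APAP) injury, in mice that had also received MSC, HDF cells or APAP only. The 10 genes are Ghr, Stat5b, Socs2, Cish, Igf1, Igfals, Igfbp1, Igfbp2, Igfbp3 and Igfbp4, taken by symbol from the 28956 gene rows of the raw count table, and all 10 passed the low-count filter that left 17582 rows for testing. The 3 groups were APAP_MSC (APAP, then MSC), APAP_HDF (APAP, then HDF) and APAP (no cells), with 3 libraries each. All mice were C57BL6J, were 8 weeks old and received APAP at 300 mg/kg intraperitoneally. The cells, 500000 per mouse, were given intravenously 90 min later, and the series title places the measurement at 24 h. MSC and HDF are not spelled out in the labels; the usual readings are mesenchymal stromal cell and human dermal fibroblast. No sex is given in the labels. No untreated liver was analysed here, so every value is relative to injured liver and not to a healthy level. The labels give n = 3 without saying that the libraries came from separate animals, so each p-value reflects library-to-library spread, which may be technical. Libraries are numbered 1 to 3 by their place within a group.

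Although the cell type label reads hepatocytes, the RNA came from whole liver. Hepatocyte transcripts dominated all libraries, with Alb (albumin) between 62366 and 86006 CPM (counts scaled to a common library size, with TMM factors), while markers of endothelial cells, macrophages and stellate cells were also detected. Ddx3y, a Y-linked gene, lay between 49.2 and 61.6 CPM and Xist between 0.0905 and 0.491 CPM in all 9 libraries. Every library thus held RNA of male liver. Library totals were 53267231 to 63175573 counts.

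Growth hormone from the pituitary binds its receptor GHR on hepatocytes, which activates the kinase JAK2 and then the transcription factor STAT5, mainly STAT5B in liver. STAT5 induces Igf1, Igfals and the feedback inhibitors Socs2 and Cish, and the male pattern of hormone pulses maintains a set of male-biased liver genes. IGF1 leaves the liver for the blood, where IGFBP3 and the acid-labile subunit hold most of it in a long-lived complex, while IGFBP1 is known to be repressed by insulin and induced in stressed or fasting liver.

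Promoter windows of 300 bases (250 before to 50 after each annotated start) were taken from RefSeq, build GRCm38.p6, for 9 of the 10 genes, 14 windows in all. Socs2 had no window there and was not searched. They were searched for TTCNNNGAA, the palindromic STAT5-type motif, and for CAAAACA on either strand, the core of an insulin response element of the FOXO type. No window held both motifs. TTCNNNGAA occurred in 3 of the 14 windows, belonging to Cish and Igfals, against 8.298% of 32851 mouse windows. The Cish window, chr9:107296409-107296708 on the plus strand, held 2 copies, at bases 1 and 12 counted from the start site, and 0.457% of all windows held at least 2. The Igfals windows were chr17:24877594-24877893 and chr17:24877981-24878280, both on the plus strand, with the motif first base at -236 and -58. CAAAACA occurred in the Igfbp1 window, chr11:7197537-7197836 on the plus strand, at -108, against 6.283% of all windows. These 4 windows are printed because they hold a searched motif, which is in capitals; a match describes letters only and is not evidence of binding.
Cish: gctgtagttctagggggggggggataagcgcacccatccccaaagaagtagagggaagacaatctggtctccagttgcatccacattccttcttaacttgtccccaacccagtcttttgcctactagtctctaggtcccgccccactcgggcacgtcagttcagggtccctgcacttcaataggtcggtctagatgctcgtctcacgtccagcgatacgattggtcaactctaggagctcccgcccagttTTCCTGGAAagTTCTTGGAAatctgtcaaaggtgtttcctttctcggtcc
Igfals upstream start: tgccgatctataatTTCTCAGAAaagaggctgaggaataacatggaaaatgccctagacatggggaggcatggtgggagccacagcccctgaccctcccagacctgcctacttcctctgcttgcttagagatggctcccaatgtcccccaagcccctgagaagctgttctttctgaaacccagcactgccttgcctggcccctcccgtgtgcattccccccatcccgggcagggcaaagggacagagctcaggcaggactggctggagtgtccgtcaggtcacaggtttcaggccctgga
Igfals second start: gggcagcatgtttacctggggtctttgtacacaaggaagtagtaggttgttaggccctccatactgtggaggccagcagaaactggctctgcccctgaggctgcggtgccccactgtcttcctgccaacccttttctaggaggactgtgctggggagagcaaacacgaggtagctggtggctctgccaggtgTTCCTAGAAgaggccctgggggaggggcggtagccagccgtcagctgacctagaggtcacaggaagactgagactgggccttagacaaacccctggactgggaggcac
Igfbp1: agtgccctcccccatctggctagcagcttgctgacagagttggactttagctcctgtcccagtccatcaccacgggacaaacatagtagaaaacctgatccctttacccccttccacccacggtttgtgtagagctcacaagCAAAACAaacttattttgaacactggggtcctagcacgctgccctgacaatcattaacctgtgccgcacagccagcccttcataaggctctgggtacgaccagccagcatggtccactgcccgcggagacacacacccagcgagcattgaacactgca

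In APAP_MSC livers the transcripts of the hormone receptor and of the acid-labile subunit were higher than in APAP livers, while Igf1 itself did not pass the test. With edgeR's quasi-likelihood test, adjusted over all 17582 genes, 2 of the 10 genes rose in APAP_MSC against APAP, Ghr and Igfals, and 0 fell. The background was 6.38% of all tested genes called in either direction, 2.83% higher and 3.54% lower. At an unadjusted p under 0.05 there were 5 of the 10, against 22.9% of all genes. Of the genes below 0, 3 had an unadjusted p under 0.05 (Socs2, Igfbp1 and Igfbp3), and DESeq2 called 2 of them lower, Igfbp1 and Igfbp3, whereas limma-voom called 0. The libraries of the groups did not overlap for 3 of the 10, all higher, against 28.5% of all genes (13.7% higher, 14.7% lower). The median log2 fold change of the 10 was 0.13, against -0.01 over all genes.

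In APAP_HDF against APAP, 0 of the 10 genes passed edgeR's test, as did 0% of all genes. At an unadjusted p under 0.05 there was 1 of the 10, Igfbp2, and 8.78% of all genes. DESeq2 called 83 genes and limma-voom 0, with 0 of the 10 in either. Groups did not overlap for 1 of the 10, against 11.7% of all genes (5.66% higher, 6.08% lower). The median log2 fold change of the 10 was 0.03, against -0.00 over all genes.

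In APAP_MSC against APAP_HDF, Ghr and Igfals were again higher and Igfbp1 was lower, so that 2 rose and 1 fell. The background was 8.89% of all genes called, 4.9% higher and 3.99% lower. At an unadjusted p under 0.05 there were 6 of the 10, against 25.7% of all genes. Groups did not overlap for 6 of the 10, with 2 higher and 4 lower, against 33.2% of all genes (16.8% higher, 16.4% lower). The median log2 fold change of the 10 was 0.07, against -0.02 over all genes. The comparisons with APAP share those 3 libraries, as those with APAP_MSC share theirs, and are not independent.

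**Figure D1:**
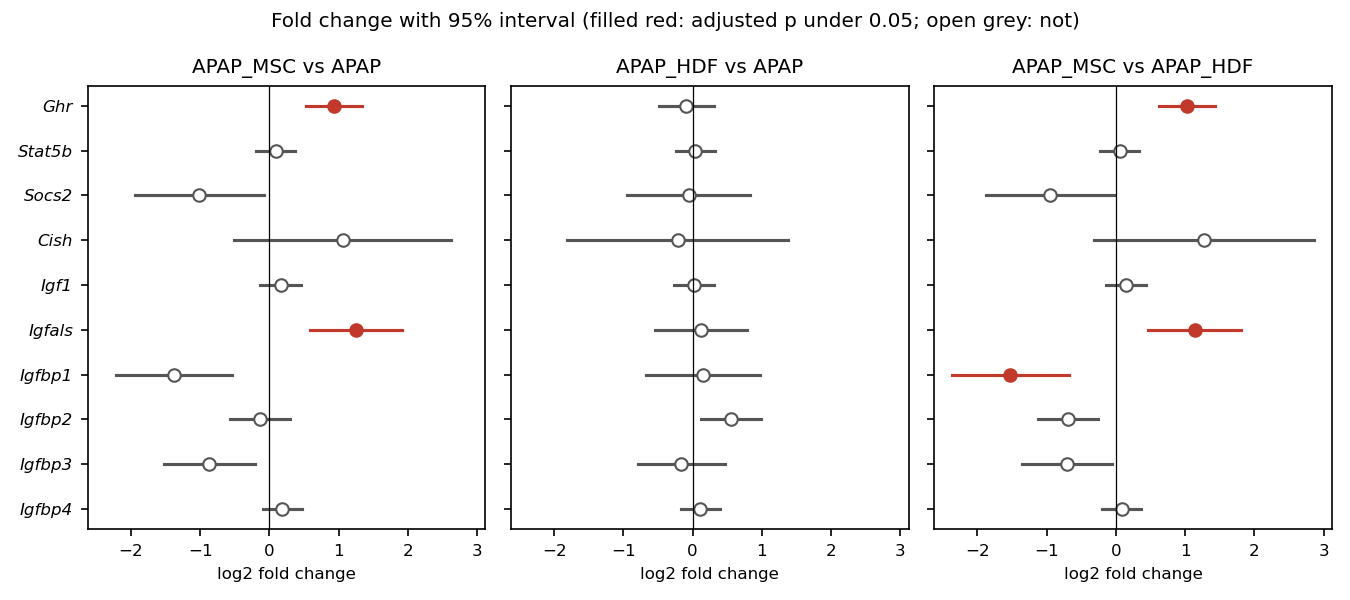
Log2 fold changes of the 10 genes (rows) with 95% intervals in each of the 3 comparisons (panels); filled red points passed the adjusted threshold. Ghr and Igfals lie to the right of 0 in both panels with APAP_MSC, and the APAP_HDF against APAP panel holds no filled point.

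Ghr encodes the growth hormone receptor, and by alternative splicing in mouse also the circulating hormone-binding protein. It had 250, 282 and 288 CPM in APAP_MSC libraries 1 to 3, 89.9, 152 and 161 CPM in APAP_HDF and 153, 138 and 138 CPM in APAP. All APAP_MSC libraries lay above all others, and the lowest value was APAP_HDF library 1. The rise against APAP was 1.91-fold (log2 fold change 0.93 ± 0.18 SE, edgeR adjusted p = 0.0182). This call was lost without APAP_MSC library 2 (adjusted p = 0.0884) or library 3 (0.0562). Against APAP_HDF the log2 fold change was 1.03 ± 0.18 (edgeR adjusted p = 0.00825), and this call held in all 17 alternative fits, with adjusted p up to 0.0456. APAP_HDF and APAP differed by -0.09 ± 0.18 (95% interval -0.49 to 0.31, edgeR adjusted p = 0.914), and by 0.13 without APAP_HDF library 1.

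Cells other than hepatocytes contribute RNA to these libraries, and in bulk liver fewer cells of a type and less RNA per cell cannot be told apart. Hepatocyte markers split in direction, with 7 of 11 above 0 and 4 below in APAP_MSC against APAP, and 7 and 4 against APAP_HDF. The summed level of 11 of them, most of it Alb, overlapped between groups, at 116412 to 130731 CPM in APAP_MSC, 108076 to 138600 CPM in APAP_HDF and 111113 to 134478 CPM in APAP. In APAP_MSC against APAP, 5 of the 11 did not overlap between groups, all of them higher (Ttr, Serpinc1, F2, Cps1 and Asgr1). The share of all genes was 28.5% in either direction and 13.7% higher. Of the 11, 0 passed edgeR's test there (5 at an unadjusted p under 0.05, 4 higher by DESeq2, 0 by limma-voom, and 0 to 4 higher with 1 library left out, the 4 without APAP_HDF library 1). In APAP_MSC against APAP_HDF, 6 of the 11 did not overlap, against 33.2% of all genes. Among those 6, Apob was lower, at 4637 to 5893 CPM in APAP_MSC and 6543 to 7522 CPM in APAP_HDF. The others, Ttr, Serpinc1, F2, Cps1 and Asgr1, were higher, where the shares of all genes were 16.8% higher and 16.4% lower. By edgeR 2 of the 11 rose, Cps1, an enzyme of the urea cycle (log2 fold change 0.73 ± 0.16, edgeR adjusted p = 0.0213), and Serpinc1, which encodes antithrombin (0.60 ± 0.16, adjusted p = 0.0365). There 0 fell, DESeq2 called 3 higher and limma-voom 2, and the count was 0 without any 1 APAP_MSC library, 1 without APAP_HDF library 2 and at most 3 without any 1 of the others. The part of the hepatocyte markers in the Ghr and Igfals results was not tested.

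Markers of other liver cells were partly lower in APAP_MSC, with counts that depended on single libraries. Of all genes, 3.54% were called lower against APAP and 3.99% against APAP_HDF. In APAP_MSC against APAP, 10 of 10 endothelial and 9 of 10 monocyte and macrophage markers were below 0. In each of these lists 8 had an unadjusted p under 0.05 (22.9% of all genes) and 8 did not overlap (28.5%). Sinusoidal endothelial markers summed to 178 to 199 CPM in APAP_MSC, 234 to 307 CPM in APAP_HDF and 238 to 359 CPM in APAP. Of the 10, 3 were lower in APAP_MSC against APAP (8 by DESeq2, 3 by limma-voom, and 0 to 7 with 1 library left out, 0 without APAP_MSC library 2 or 3 and 7 without APAP library 3), and 3 in APAP_MSC against APAP_HDF (1 to 5, with 1 without APAP_MSC library 2 and 5 without APAP library 3). Monocyte and macrophage markers summed to 131 to 147 CPM in APAP_MSC, 135 to 175 CPM in APAP_HDF and 160 to 233 CPM in APAP. Of these 10, 6 were lower in APAP_MSC against APAP (8 by DESeq2, 4 by limma-voom, and 2 to 8 with 1 library left out, 2 without APAP_MSC library 2 and 3 without library 1 or 3). Against APAP_HDF 3 were lower, as in all 9 fits without a library, and 1 was higher, Spp1 (osteopontin), which did not pass without any 1 APAP_MSC or APAP_HDF library.

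Stellate cell markers summed to 259 to 290 CPM in APAP_MSC, 242 to 338 CPM in APAP_HDF and 347 to 417 CPM in APAP. Of the 10, 3 were lower in APAP_MSC against APAP (4 by DESeq2, 2 by limma-voom), 0 without any 1 APAP_MSC library or APAP library 1, and 1 without APAP library 2. In APAP_MSC against APAP_HDF 0 of the 10 stellate markers passed by edgeR (3 at an unadjusted p under 0.05, 1 higher by DESeq2, 0 by limma-voom). Neutrophil markers summed to 2.75 to 4.24 CPM in APAP_MSC, 3.11 to 10.7 CPM in APAP_HDF and 9.24 to 12.1 CPM in APAP. Of 8 neutrophil markers 5 were tested and 3 were lower in APAP_MSC against APAP (4 by DESeq2, 3 by limma-voom), 0 without APAP_MSC library 2 or 3 and 1 without APAP_MSC library 1 or any 1 APAP library, while Ly6g and Mpo stayed at or below 0.0378 CPM. Against APAP_HDF, 0 of the 5 neutrophil markers passed by edgeR (2 at an unadjusted p under 0.05, 1 lower by DESeq2, 0 by limma-voom). In APAP_HDF against APAP 0 of the endothelial, monocyte and macrophage, stellate and neutrophil markers passed by any of the 3 tools. At an unadjusted p under 0.05 were 0 of 10, 5 of 10, 4 of 10 and 1 of 5, against 8.78% of all genes. Below 0 were 5, 7, 9 and 5 of them in the same order. The part of these markers in the Ghr and Igfals results was not tested.

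Stat5b, the main STAT5 of liver, had 35.9, 46.4 and 50.4 CPM in APAP_MSC, 42.1, 44.6 and 41.0 CPM in APAP_HDF and 46.2, 40.7 and 37.7 CPM in APAP. The 3 groups overlapped, and the lowest and the highest library were both APAP_MSC. Log2 fold changes were 0.09 ± 0.13 in APAP_MSC against APAP (95% interval -0.19 to 0.37, edgeR adjusted p = 0.733), 0.04 in APAP_HDF against APAP (adjusted p = 0.955) and 0.05 in APAP_MSC against APAP_HDF (adjusted p = 0.831). Its paralog Stat5a, the other STAT5, had a log2 fold change of 0.23 ± 0.11 in APAP_MSC against APAP (edgeR adjusted p = 0.227). The kinase gene Jak2 had -0.20 ± 0.13 (edgeR adjusted p = 0.402).

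Socs2, which encodes a feedback inhibitor that targets the activated receptor, had 5.57, 3.63 and 4.05 CPM in APAP_MSC. It had 9.99, 6.79 and 8.93 CPM in APAP_HDF and 3.97, 7.65 and 14.9 CPM in APAP. APAP_MSC libraries lay below every APAP_HDF library, while APAP spread over a 3.76-fold range and had 1 library below 2 of the 3 APAP_MSC libraries. The log2 fold changes of APAP_MSC were -1.01 ± 0.41 against APAP (edgeR adjusted p = 0.18) and -0.96 ± 0.41 against APAP_HDF (adjusted p = 0.18), so neither passed. Without APAP library 1 the value against APAP was -1.34 (adjusted p = 0.045), and without APAP library 3 it was -0.39. Against APAP_HDF it was -0.94 without APAP library 3 (adjusted p = 0.0426), and the adjusted p was 0.0231 when only those 2 groups were fitted.

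Cish, another STAT5-induced inhibitor of the same pathway, had 27.2, 7.80 and 15.3 CPM in APAP_MSC, 5.38, 6.58 and 8.87 CPM in APAP_HDF and 2.69, 4.01 and 17.2 CPM in APAP. APAP library 3 was the highest of its group, above 2 of the APAP_MSC libraries, and it also had the highest Socs2. The log2 fold change of APAP_MSC was 1.06 ± 0.68 against APAP (edgeR adjusted p = 0.412) and 1.27 ± 0.69 against APAP_HDF (adjusted p = 0.29). Without APAP library 3 the value against APAP was 2.33 (adjusted p = 0.0485). Exons of the antisense genes Gm17040 and Gm17041 overlap Cish in the GENCODE M21 annotation, and the labels do not say whether counting used strand, so the Cish counts are uncertain.

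**Figure D2:**
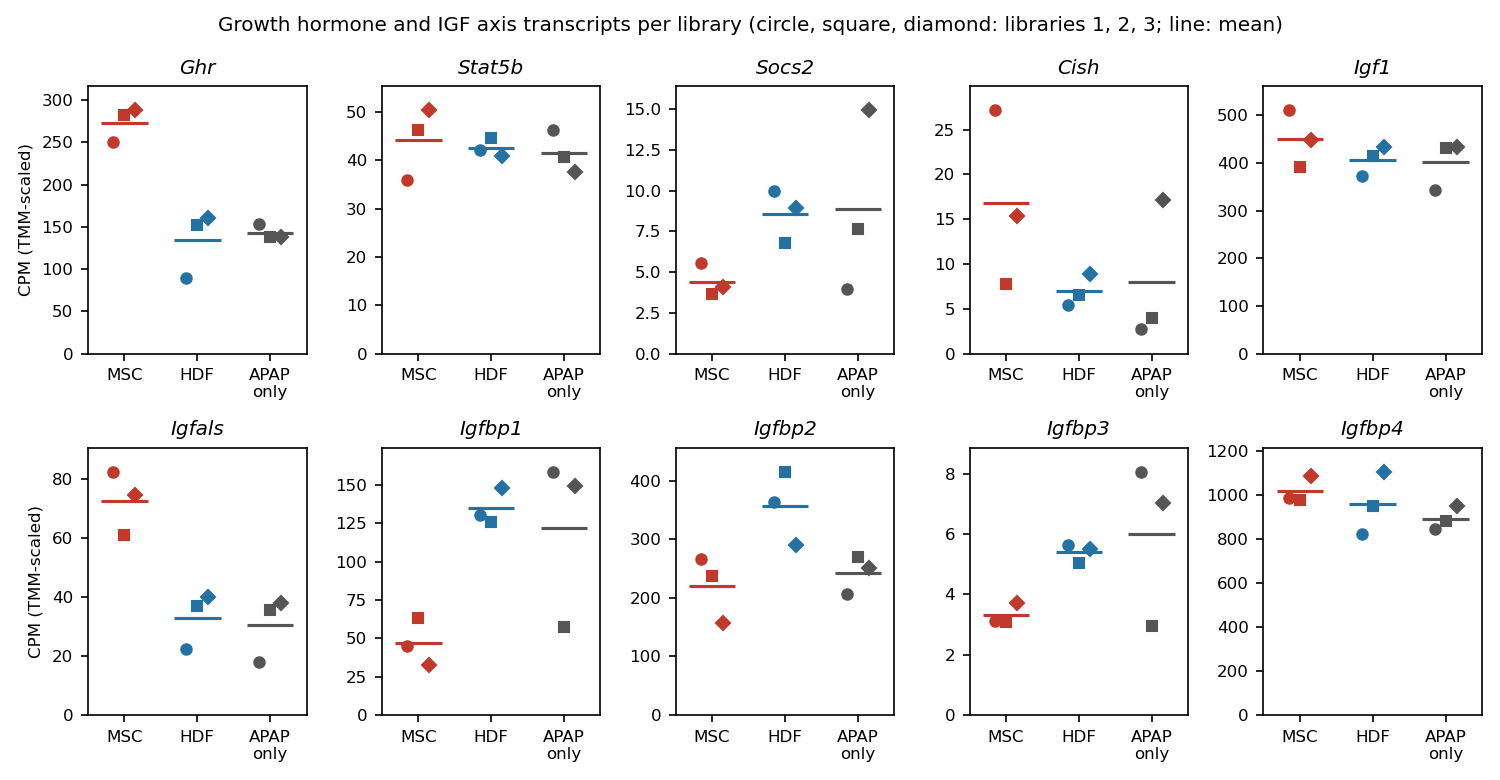
TMM-scaled CPM of each of the 10 genes (panels) in the 9 libraries, with MSC, HDF and APAP-only livers from left to right, a marker for each library and a line at each group mean. Ghr and Igfals are higher in all 3 APAP_MSC libraries than in the other 6, Igf1 overlaps between groups, and APAP library 2 lies low for Igfbp1 and Igfbp3.

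Igf1, the hormone's main growth-promoting product, had 510.4, 391.8 and 448.4 CPM in APAP_MSC, 373, 414 and 434 CPM in APAP_HDF and 343, 431 and 433 CPM in APAP. The groups overlapped. The log2 fold changes were 0.16 ± 0.13 in APAP_MSC against APAP (95% interval -0.13 to 0.46, edgeR adjusted p = 0.522), 0.02 in APAP_HDF against APAP (-0.28 to 0.31, adjusted p = 0.982) and 0.15 in APAP_MSC against APAP_HDF (adjusted p = 0.539). The upper bound in APAP_MSC against APAP was thus 0.46 on the log2 scale.

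Igfals, which encodes the acid-labile subunit of the circulating IGF complex, had 82.4, 60.9 and 74.6 CPM in APAP_MSC. It had 22.4, 36.8 and 39.9 CPM in APAP_HDF and 17.9, 35.7 and 37.9 CPM in APAP. The lowest APAP_MSC library lay above the highest of the other 6. Igfals rose 2.38-fold in APAP_MSC against APAP (log2 fold change 1.25 ± 0.30, edgeR adjusted p = 0.0411). That call was lost without APAP_MSC library 1 (adjusted p = 0.121), 2 (0.1002) or 3 (0.0941), APAP_HDF library 2 (0.0646), or APAP library 1 (0.0544) or 2 (0.0651), and without the low-count filter (0.108). Against APAP_HDF the log2 fold change was 1.14 ± 0.30 (edgeR adjusted p = 0.0462), and the call did not pass with the legacy dispersion estimate of edgeR (adjusted p = 0.0502). It was also lost without APAP_MSC library 1 (adjusted p = 0.137), 2 (0.0909) or 3 (0.0872), APAP_HDF library 1 (0.105), 2 (0.0933) or 3 (0.0695), or APAP library 2 (0.0537), and without the low-count filter (0.123). APAP_HDF differed from APAP by 0.11 ± 0.29 (edgeR adjusted p = 0.935).

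Igfbp1, the insulin-repressed binding protein, had 45.3, 63.1 and 32.4 CPM in APAP_MSC, 131, 126 and 148 CPM in APAP_HDF and 159, 57.7 and 149 CPM in APAP. APAP library 2 lay within the APAP_MSC range and the other 5 comparison libraries lay above it. Igfbp1 fell 2.88-fold in APAP_MSC against APAP_HDF (log2 fold change -1.52 ± 0.37, edgeR adjusted p = 0.0387). That call was lost without APAP_MSC library 1 (adjusted p = 0.126), 2 (0.0674) or 3 (0.0935), APAP_HDF library 1 (0.103), 2 (0.0807) or 3 (0.109), or APAP library 3 (0.0512), and without the low-count filter (0.129). Against APAP the log2 fold change was -1.38 ± 0.37 and did not pass (edgeR adjusted p = 0.0617). Without APAP library 2 it was -1.70 (adjusted p = 0.0102), and with DESeq2 it was -1.37 (adjusted p = 7.19e-04). It also passed without robust moderation (edgeR adjusted p = 0.036). APAP_HDF differed from APAP by 0.15 ± 0.36 (edgeR adjusted p = 0.933), and by -0.19 without APAP library 2.

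Igfbp1 was also set against Igf1 within each library, in which gene length and library size cancel between groups. There were 8.87, 16.1 and 7.23 Igfbp1 counts per 100 Igf1 counts in APAP_MSC, 35.0, 30.4 and 34.2 in APAP_HDF and 46.3, 13.4 and 34.5 in APAP. The log2 difference was -3.31 ± 0.60 in APAP_MSC, -1.59 ± 0.11 in APAP_HDF and -1.85 ± 0.93 in APAP (SD, n = 3 each). All APAP_MSC libraries were below all APAP_HDF libraries, whereas APAP library 2 overlapped APAP_MSC. APAP_MSC minus APAP_HDF was -1.71 on that scale (two-sided exact permutation p = 0.1, 0.3 adjusted over 3 comparisons) and APAP_MSC minus APAP was -1.46 (exact p = 0.2, adjusted 0.3). With 3 libraries against 3 the test cannot go below 0.1. APAP_HDF minus APAP was 0.25 (exact p = 0.9, adjusted 0.9).

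**Figure D3:**
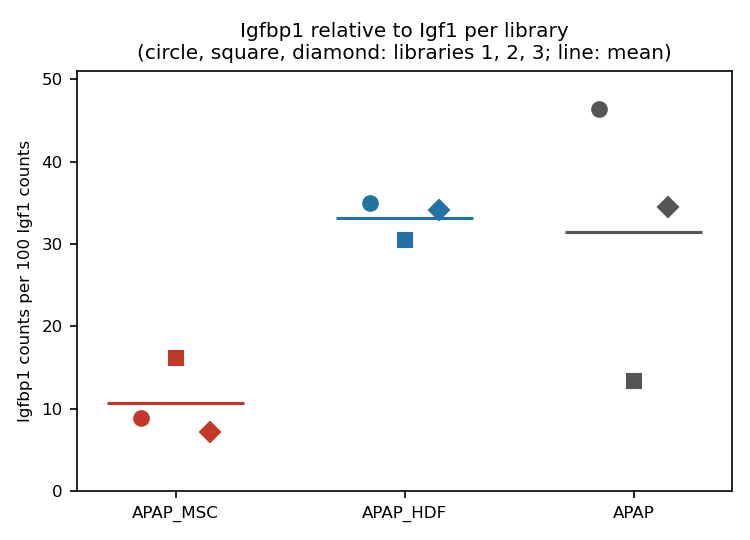
Igfbp1 counts per 100 Igf1 counts in each library (points) with the group mean (line) for APAP_MSC, APAP_HDF and APAP from left to right. The APAP_MSC libraries lie between 7.23 and 16.1 and the APAP_HDF libraries between 30.4 and 35.0, with APAP library 2 at 13.4.

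Igfbp2, a binding protein that hepatocytes secrete, had 266, 238 and 158 CPM in APAP_MSC, 364, 415 and 290 CPM in APAP_HDF and 206, 270 and 252 CPM in APAP. All APAP_HDF libraries were above all others. The log2 fold change was 0.56 ± 0.20 in APAP_HDF against APAP (edgeR adjusted p = 0.535) and -0.69 ± 0.20 in APAP_MSC against APAP_HDF (adjusted p = 0.0515), and neither passed. APAP_MSC against APAP_HDF passed with DESeq2 (adjusted p = 0.0117) and without APAP_HDF library 3 (0.0426). APAP_MSC differed from APAP by -0.14 ± 0.20 (edgeR adjusted p = 0.734).

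Igfbp3, which encodes the main partner of IGF1 in blood and is made mostly by non-parenchymal liver cells, had 3.12, 3.08 and 3.70 CPM in APAP_MSC. It had 5.65, 5.04 and 5.49 CPM in APAP_HDF and 8.06, 2.95 and 7.03 CPM in APAP. APAP library 2, low for Igfbp1, was the lowest of the 9 here too. The log2 fold change of APAP_MSC was -0.87 ± 0.30 against APAP (edgeR adjusted p = 0.107) and -0.71 ± 0.30 against APAP_HDF (adjusted p = 0.163). Without APAP library 2 these were -1.18 (adjusted p = 0.0106) and -0.69 (adjusted p = 0.0287). DESeq2 gave an adjusted p of 0.0436 against APAP, and an edgeR fit of only the 2 groups gave 0.027 against APAP_HDF. Of 10 markers each, 3 endothelial, 6 monocyte and macrophage and 3 stellate ones were lower in APAP_MSC against APAP, and 3, 3 and 0 in the same lists against APAP_HDF; their part in the Igfbp3 values was not tested.

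Igfbp4, an IGF-inhibiting binding protein, had 985, 976 and 1088 CPM in APAP_MSC, 824, 952 and 1106 CPM in APAP_HDF and 845, 880 and 951 CPM in APAP. APAP_MSC lay above APAP in all libraries, while APAP_HDF spanned both. Its log2 fold changes were 0.19 ± 0.13 in APAP_MSC against APAP (edgeR adjusted p = 0.428), 0.11 in APAP_HDF against APAP (adjusted p = 0.832) and 0.08 in APAP_MSC against APAP_HDF (adjusted p = 0.735).

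Levels of different genes were compared as CPM per kb of exon, with exon lengths from GENCODE M21 on GRCm38, which is not the annotation the counts were made on. Igfbp4 led with 259 in APAP_MSC, 245 in APAP_HDF and 227 in APAP, and Igfbp2 followed with 151 in APAP_MSC, 244 in APAP_HDF and 166 in APAP. In APAP_HDF the libraries of these 2 genes overlapped. Igfbp1 was next in APAP_HDF (88.5) and APAP (79.9), whereas in APAP_MSC (30.8) it came after Ghr (59.0) and Igf1. Igf1 was at 45.5 in APAP_MSC, 41.1 in APAP_HDF and 40.6 in APAP, and Igfbp1 libraries overlapped it in APAP_MSC and APAP. Igfals (27.7 in APAP_MSC) overlapped Igfbp1 there, and Stat5b, Cish, Socs2 and Igfbp3 all averaged below 10 in every group. Among these lower genes, libraries of neighbours overlapped for Stat5b and Cish in APAP_MSC, for Cish and Igfbp3 in APAP_HDF, and for Igfals and Stat5b, Socs2 and Cish, and Cish and Igfbp3 in APAP.

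Other genes of the pathway mostly did not pass. Of all genes, 2.83% rose and 3.54% fell in APAP_MSC against APAP, with 22.9% at an unadjusted p under 0.05. In APAP_MSC against APAP_HDF 4.9% rose and 3.99% fell, with 25.7% at that level. In APAP_HDF against APAP 0% passed, with 8.78% at that level. These shares are the background of the lists below. Of 18 genes of growth hormone signalling, 0 passed in APAP_MSC against APAP by edgeR, DESeq2 or limma-voom, with 1 at an unadjusted p under 0.05, and their median log2 fold change was -0.15 against -0.01 over all genes. That gene was Sirpa, a substrate that binds the phosphatase SHP2 (-0.57 ± 0.25, edgeR adjusted p = 0.208). Ptpn11, which encodes SHP2, had 83.5, 82.3 and 92.1 CPM in APAP_MSC, 118, 109 and 112 CPM in APAP_HDF and 94.3 to 106 CPM in APAP. It was the 1 gene of the 18 that fell in APAP_MSC against APAP_HDF (-0.39 ± 0.09, edgeR adjusted p = 0.025). That call was lost without APAP_MSC library 1 or 2 or any 1 of the APAP_HDF libraries, with adjusted p up to 0.135. For the 18 in that comparison, DESeq2 called 1 higher and 1 lower, limma-voom 0 and 1. Sh2b1, an adaptor of JAK2, had 0.21 ± 0.10 in APAP_MSC against APAP (adjusted p = 0.256) and Socs3, an inhibitor induced by cytokines, -0.15 ± 0.26 (adjusted p = 0.786). Between APAP_HDF and APAP 0 of the 18 passed by any of the 3 tools, with 0 at an unadjusted p under 0.05.

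Of 15 tested other genes of the IGF system, 1 rose in APAP_MSC against APAP (2.83% of all genes) and 0 fell. At an unadjusted p under 0.05 there were 3 (22.9% of all genes), and the median was -0.25. DESeq2 and limma-voom also called 1 higher and 0 lower. Grb14, which encodes an inhibitory adaptor of the insulin receptor, had 82.5, 86.7 and 80.7 CPM in APAP_MSC, 60.6, 49.1 and 53.9 CPM in APAP_HDF and 61.7, 65.8 and 53.4 CPM in APAP. All APAP_MSC libraries were higher. The log2 fold change was 0.47 ± 0.11 against APAP (edgeR adjusted p = 0.031), a call lost without any 1 APAP_MSC library or without APAP library 1 or 3 (adjusted p up to 0.135). Against APAP_HDF it was 0.61 ± 0.11 (adjusted p = 0.00814) and held in all 9 fits without a library. Igf2r, the receptor that clears IGF2, had -0.25 ± 0.09 in APAP_MSC against APAP (adjusted p = 0.106), Igfbp7, abundant in endothelial cells, -0.38 ± 0.15 (adjusted p = 0.156) and Igfbp6 -0.84 ± 0.44 (adjusted p = 0.282). Igf1r, the IGF1 receptor, lay between 2.44 and 4.64 CPM in all libraries, and Igf2 had 20 counts in all 9 libraries together and was not tested. Between APAP_HDF and APAP 0 of the 15 passed by any of the 3 tools, with 1 at an unadjusted p under 0.05. Grb14 was the 1 gene of the 15 that rose in APAP_MSC against APAP_HDF, where 0 fell by edgeR and limma-voom and 2 by DESeq2.

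Of 21 male-biased growth hormone targets, 6 rose in APAP_MSC against APAP and 0 fell, 12 were at an unadjusted p under 0.05, and the median was 0.42. Over all genes 2.83% rose, 22.9% were at an unadjusted p under 0.05, and the median was -0.01. DESeq2 called 9 higher and limma-voom 6, with 0 lower in either. Leaving out 1 library gave between 1 and 8, with 1 without APAP_MSC library 1 or 2 and 3 without library 3. These counts carry no independent weight, since several of the genes were known to be high in these libraries when the list was written.

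Nudt7, a peroxisomal coenzyme A hydrolase, had 246, 158 and 133 CPM in APAP_MSC, 29.8, 35.5 and 35.5 CPM in APAP_HDF and 28.6, 36.5 and 46.2 CPM in APAP. It rose in APAP_MSC against APAP (log2 fold change 2.27 ± 0.24, edgeR adjusted p = 0.0034) and against APAP_HDF (2.41 ± 0.24, adjusted p = 0.00107), and both calls held in all 9 fits without a library. Hsd3b5, a male-specific steroid-metabolising enzyme of mouse liver, had 51.7, 48.6 and 39.5 CPM in APAP_MSC, 1.20, 4.13 and 11.8 CPM in APAP_HDF and 2.24, 2.54 and 5.96 CPM in APAP. APAP_MSC lay far above the other groups, and APAP_HDF library 1 was the lowest of all. The log2 fold change was 3.68 ± 0.71 against APAP (adjusted p = 0.0249) and 3.05 ± 0.68 against APAP_HDF (adjusted p = 0.0318). Leaving out 1 library took the adjusted p up to 0.0917 and 0.112, with the first call lost without any 1 APAP_MSC library or APAP library 1 or 2, and the second without any 1 APAP_MSC library or APAP_HDF library 2.

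Elovl3, a fatty acid elongase, had 37.7, 57.2 and 39.5 CPM in APAP_MSC, 1.26, 12.4 and 11.7 CPM in APAP_HDF and 1.70, 1.90 and 2.88 CPM in APAP. It rose against APAP (4.36 ± 0.72, edgeR adjusted p = 0.0175, lost without APAP_MSC library 1 or 2 or APAP library 1, up to 0.0696), and against APAP_HDF it had 2.41 ± 0.64 (adjusted p = 0.0529). Keg1 rose against APAP (1.24 ± 0.23, adjusted p = 0.0182, lost without APAP_MSC library 1 or 2, up to 0.0632) and against APAP_HDF (1.22 ± 0.23, adjusted p = 0.0131). Slco1a1, an organic anion transporter, and the cytochrome P450 Cyp2d40 were the other genes past the threshold against APAP, named after their values were seen, at 2.05 ± 0.44 (adjusted p = 0.034) and 0.75 ± 0.18 (adjusted p = 0.0366). The Slco1a1 call was lost without any 1 APAP_MSC or APAP library or APAP_HDF library 2 (adjusted p up to 0.103), and the Cyp2d40 call without any 1 APAP_MSC library, APAP_HDF library 2 or APAP library 2 or 3 (up to 0.106). In APAP_MSC against APAP_HDF 4 of the 21 rose and 0 fell, namely Hsd3b5, Nudt7, Keg1 and Cyp2d40, with 8 higher by DESeq2, 6 by limma-voom and 2 to 6 in the fits without a library. With HDF cells against APAP only, 0 passed by any of the 3 tools, with 3 at an unadjusted p under 0.05 and a median of 0.17.

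Of 12 tested female-biased targets, 1 rose in APAP_MSC against APAP (2.83% of all genes) and 0 fell. At an unadjusted p under 0.05 there were 2 (22.9% of all genes), and the median was 0.28. The gene that rose was Cyp3a44, with 1.16, 1.001 and 1.27 CPM in APAP_MSC, 0.205, 0.325 and 0.272 CPM in APAP_HDF and 0.307, 0.691 and 0.347 CPM in APAP. Its log2 fold change was 1.37 ± 0.33 (edgeR adjusted p = 0.0342), lost without any 1 APAP_MSC library, APAP_HDF library 2 or APAP library 1 or 3 (adjusted p up to 0.102). Against APAP_HDF 3 rose and 0 fell, namely Cyp3a44 (2.10 ± 0.36, adjusted p = 0.00699), Cyp3a41a (2.09 ± 0.45, adjusted p = 0.0173) and Prom1 (1.09 ± 0.27, adjusted p = 0.0298, named after its values were seen), while the list's median was -0.38 and DESeq2 called 2 of its genes lower. Levels were low, with Cyp3a41a at 0.424 to 0.642 CPM in APAP_MSC and 0.109 to 0.146 CPM in APAP_HDF, and 142 counts in all 9 libraries together. Prom1 had 1.17 to 1.72 CPM in APAP_MSC and 0.582 to 0.833 CPM in APAP_HDF. Cyp3a41a was lost without APAP_MSC library 2 or APAP_HDF library 1 (up to 0.0838) and Prom1 without any 1 APAP_MSC library or APAP_HDF library 1 or 2 (up to 0.112). Cyp3a44 and Cyp3a41a are near-identical copies within a family and their counts are uncertain. The steroid hydroxylase Cyp2a4 had 1.67 ± 0.87 in APAP_MSC against APAP (adjusted p = 0.3) and Cyp17a1 -0.51 ± 0.34 (adjusted p = 0.42). For APAP_HDF against APAP 0 of the 12 passed by any of the 3 tools, with 3 at an unadjusted p under 0.05.

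**Figure D4:**
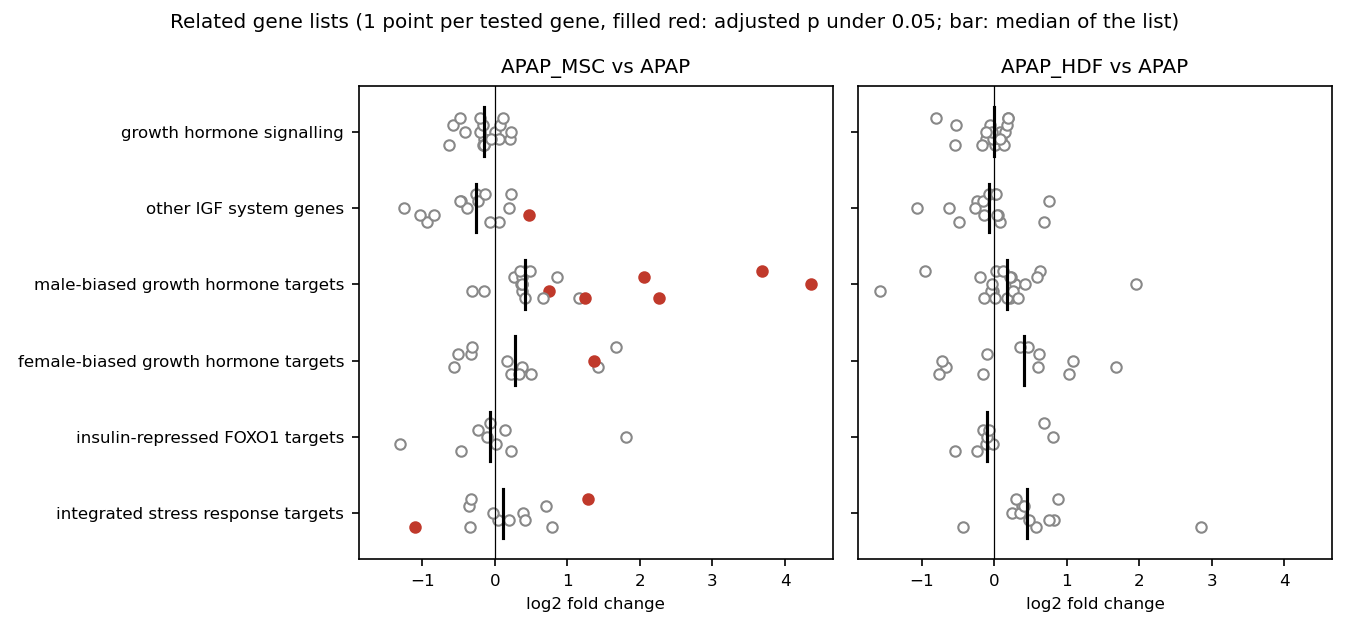
Log2 fold changes of the tested genes of 6 related lists in APAP_MSC against APAP and in APAP_HDF against APAP, with 1 point per gene, filled red where the adjusted threshold was passed, and a bar at the list median. Of the male-biased growth hormone targets 6 are filled in the APAP_MSC panel, and no point is filled in the APAP_HDF panel.

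Of 9 insulin-repressed FOXO1 targets, which like Igfbp1 are induced when insulin is low, 0 passed in APAP_MSC against APAP by edgeR, DESeq2 or limma-voom, and 0 had an unadjusted p under 0.05. Pck1, the gluconeogenic enzyme, had 438, 687 and 1003 CPM in APAP_MSC, 532, 2286 and 2365 CPM in APAP_HDF and 1025, 2800 and 1412 CPM in APAP (APAP_MSC against APAP -1.30 ± 0.60, edgeR adjusted p = 0.241). G6pc, which releases glucose, had 1.80 ± 0.91 in the same comparison (adjusted p = 0.296), Foxo1 -0.47 ± 0.23 (adjusted p = 0.259) and the insulin receptor gene Insr -0.23 ± 0.13 (adjusted p = 0.352). In APAP_MSC against APAP_HDF 0 of the 9 passed by edgeR and limma-voom, with 1 at an unadjusted p under 0.05 and 1 lower by DESeq2, and in APAP_HDF against APAP 0 passed by any of the 3 tools, with 2 at an unadjusted p under 0.05.

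Igfbp1 is also known as a target of the integrated stress response. Of 12 genes of that response, 1 rose and 1 fell in APAP_MSC against APAP (2.83% and 3.54% of all genes). At an unadjusted p under 0.05 there were 5 (22.9% of all genes), and the median was 0.12. DESeq2 called 3 higher and 1 lower, limma-voom 1 and 1, and with 1 library left out the counts were 0 to 2 higher and 0 to 1 lower. Without APAP_MSC library 1 or 2, 0 were higher, without APAP library 3, 2 were, and without APAP_MSC library 2 or 3 or APAP library 1 or 2, 0 were lower. Ddit3, which encodes the stress factor CHOP, had 35.5, 25.8 and 27.3 CPM in APAP_MSC, 14.8, 27.6 and 24.4 CPM in APAP_HDF and 9.63, 13.0 and 13.7 CPM in APAP. It rose against APAP (1.28 ± 0.23, edgeR adjusted p = 0.0165), a call lost without APAP_MSC library 1 or 2 (up to 0.0556). Slc7a11, a cystine transporter subunit, fell (-1.10 ± 0.24, adjusted p = 0.0238), a call lost without APAP_MSC library 2 or 3 or APAP library 1 or 2 (up to 0.12). Atf4, the transcription factor of the response, had 0.39 ± 0.12 (adjusted p = 0.076) and Chac1 0.70 ± 0.23 (adjusted p = 0.0871). Against APAP_HDF, 2 of the 12 fell in APAP_MSC (3 by DESeq2, 2 by limma-voom, and 1 without APAP_MSC library 2 or 3 or APAP_HDF library 2 or 3) and 0 rose, with 5 at an unadjusted p under 0.05. They were Sesn2 (-0.64 ± 0.14, adjusted p = 0.0215) and Psat1 (-0.77 ± 0.16, adjusted p = 0.0168), both named after their values were seen. Sesn2 was lost without APAP_MSC library 1 or 3 or APAP_HDF library 2 or 3 (up to 0.0879), and Psat1 without APAP_MSC library 2 or APAP_HDF library 2 (up to 0.0838). The counts are of the list, so the 1 lower without APAP_HDF library 2 was neither Sesn2 nor Psat1. Without APAP_MSC library 1, 2 were lower, but Sesn2 was not among them. In APAP_HDF against APAP 0 passed by edgeR and limma-voom and 2 by DESeq2, with 5 at an unadjusted p under 0.05 (8.78% of all genes). There 11 of the 12 were above 0, with a median of 0.45, and 8 did not overlap between groups (11.7% of all genes).

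The genes whose pattern over the 9 libraries was most like that of Igf1, Socs2 and Igfbp1 were found by the root mean square difference of gene-centred log2 CPM among 9365 genes with a mean of at least 5 CPM. For Igf1 they were Iqsec2 (0.0625), Fzr1 (0.0736) and Fam192a (0.0739), beside a spread of Igf1 itself of 0.156. For Socs2 they were Syt12 (0.269), Map3k14 (0.299) and Rnf39 (0.307), beside 0.648. For Igfbp1 they were Specc1 (0.369), Angptl4 (0.384) and Ifi207 (0.400), beside 0.820.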

How the data were processed

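Poly(A) RNA libraries from whole mouse liver gave raw read counts per gene symbol, deposited by the authors as whole numbers. The submitters' processing notes list HISAT2, Subread and DESeq2 and the builds mm39 and GRCm39; versions and strand are not given in the sources used here. The authors' second table, of scaled counts, was not used. There were 24 extra rows repeating a symbol, which stayed under their own names.

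Counts were filtered with filterByExpr, scaled by TMM and tested in R 4.3.3 with edgeR 4.0.16 (robust quasi-likelihood fit of all 9 libraries, group as the only term, two-sided, Benjamini-Hochberg over 17582 genes, threshold 0.05). SE is the log2 fold change over the root of F. The edgeR 4 dispersion estimate was taken after this and the legacy estimate had both been computed. A count of 0 allows up to 3 counts, for counting error only. Alternatives used DESeq2 1.42.0, limma 3.58.1 (voom), other scalings and filters, and fits without each library. The fit was tested on simulated data. The column headers give each library's group but no replicate number. The text names all 10 genes, up to 4 genes of each related list with the smallest p in APAP_MSC against APAP, role checks such as Stat5a, and the 3 genes most like each of Igf1, Socs2 and Igfbp1. The genes and lists were chosen with earlier results of these data known.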

Additional observations from a re-analysis of the deposited data

How the results depend on the processing

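No paired analysis was possible because the columns carry no replicate numbers. In APAP_MSC against APAP, 2 of the 10 genes passed, but 4 with DESeq2, 1 without the low-count filter and 0 to 3 with 1 library left out. In APAP_MSC against APAP_HDF, 3 passed, but 1 without the low-count filter, 5 with only these 2 groups fitted and 1 to 3 with 1 library left out. The legacy dispersion estimate, added after seeing the data, gave 2 there. In APAP_HDF against APAP, 0 passed in all 17 alternatives. The Igfbp1 to Igf1 difference ranged with 1 library left out over -1.98 to -1.09 (APAP_MSC against APAP), -0.27 to 0.62 (APAP_HDF against APAP) and -2.05 to -1.47 (APAP_MSC against APAP_HDF). Sign changes were seen for values that did not pass. In APAP_HDF against APAP, limma-voom gave 0.10 for Socs2 and 0.17 for Cish, and leaving out 1 library gave -0.24 to 0.13 for Ghr, -0.039 to 0.12 for Stat5b, -0.40 to 0.55 for Socs2, -0.62 to 1.04 for Cish, -0.082 to 0.074 for Igf1, -0.15 to 0.33 for Igfals, -0.19 to 0.39 for Igfbp1, -0.49 to 0.10 for Igfbp3 and -0.0080 to 0.20 for Igfbp4. The same ranges were -0.29 to 0.071 for Igfbp2 in APAP_MSC against APAP, and -0.034 to 0.18 for Stat5b and -0.0089 to 0.21 for Igfbp4 in APAP_MSC against APAP_HDF. Over all genes, 1121 passed in APAP_MSC against APAP (2050 with DESeq2, 97 to 1753 with 1 library left out) and 1563 in APAP_MSC against APAP_HDF (2531, 361 to 1793). In APAP_HDF against APAP, 0 passed (DESeq2 83; 32 when APAP library 3 was left out, 1 when APAP_HDF library 1 was). The cause of these shifts was not tested. The lowest count of any of the 10 genes in a library was 149 (Cish, APAP library 1).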

Other observations

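The spread within groups differed between the 10 genes. In APAP the highest library was 6.40 times the lowest for Cish, 3.76 times for Socs2 and 1.11 times for Ghr. In APAP_MSC the same ratio was 3.48 for Cish, 1.54 for Socs2 and 1.15 for Ghr, and in APAP_HDF it was 1.65 for Cish, 1.47 for Socs2 and 1.79 for Ghr. Erythroid markers summed to 130 to 221 CPM in APAP_MSC, 69.8 to 86.7 CPM in APAP_HDF and 56.5 to 177 CPM in APAP, with 1 of 4 tested, Alas2, higher in APAP_MSC against APAP (0 without any 1 APAP_MSC library, APAP_HDF library 2 or APAP library 3, and 3 without APAP library 2). Cholangiocyte markers summed to 151 to 164 CPM in APAP_MSC, 134 to 140 CPM in APAP_HDF and 123 to 183 CPM in APAP. In APAP_MSC against APAP_HDF, 4 of 7 were higher by edgeR (Krt19, Epcam, Spp1 and Cftr) and 0 lower. Of the 7, 2 had a log2 fold change below 0, and Sox9 had 26.2 to 40.0 CPM in APAP_MSC and 51.1 to 59.6 CPM in APAP_HDF. With 1 library left out, 1 to 4 were higher (1 without APAP_MSC library 2) and 0 to 1 lower. DESeq2 called 5 higher and 1 lower, limma-voom 4 and 0. Against APAP, 0 of the 7 passed by edgeR, and 2 were higher by DESeq2 and 0 by limma-voom. Kupffer cell markers summed to 110 to 182 CPM in APAP_MSC, 75.3 to 164 CPM in APAP_HDF and 133 to 317 CPM in APAP. In APAP_MSC against APAP 0 of 7 passed edgeR's test, with 3 at an unadjusted p under 0.05, 2 lower by DESeq2 and 0 by limma-voom. In APAP_HDF against APAP 0 passed by any of the 3 tools, with 4 at an unadjusted p under 0.05. All 7 were below 0 in both comparisons. T and NK cell markers summed to at most 2.07 CPM in any library.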
